A study of Arabidopsis thaliana with 4 samples.

Results

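The enzymes that turn nitrate into ammonium, with the proteins that supply their cofactor and electrons, are represented here by 8 Arabidopsis thaliana genes, chosen by locus identifier from the 33602 genes of the deposited table. They are the nitrate reductase genes NIA1 (AT1G77760) and NIA2 (AT1G37130), the nitrite reductase gene NIR1 (AT2G15620), the siroheme synthesis gene UPM1 (AT5G40850), the root-type ferredoxin-NADP reductase genes RFNR1 (AT4G05390) and RFNR2 (AT1G30510), and the plastidic glucose-6-phosphate dehydrogenase genes G6PD2 (AT5G13110) and G6PD3 (AT1G24280). The series asked which genes answer early to glutamate. Its glutamate group is 2 RNA-seq libraries of 14-day-old Col-0 seedlings kept for 0.5 h in 1/2 MS (-N), basal salts lacking nitrogen, with 2.5 mM glutamate, and its control group is 2 libraries from Col-0 seedlings of that age at 0 h in 1/2 MS (-N) alone. All seedlings of both groups had grown in liquid without a nitrogen source, and the labels name no nitrate in either medium. The labels list no group moved for 0.5 h to salts without glutamate, so glutamate, the move and the elapsed time cannot be told apart. All libraries carry the same batch label. Whether the replicates were grown separately is not said, so a p-value here reflects library-to-library spread that may be no more than technical.

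Nitrate reductase, a molybdenum enzyme of the cytosol, reduces nitrate to nitrite, and nitrite reductase in the plastid reduces nitrite to ammonium. Nitrite reductase carries siroheme and takes its electrons from ferredoxin. In roots and other non-green tissue, ferredoxin is reduced by root-type ferredoxin-NADP reductases with NADPH from the oxidative pentose phosphate pathway, which glucose-6-phosphate dehydrogenase opens. In Arabidopsis the genes for all these steps are classical targets of nitrate, and products of nitrogen assimilation such as glutamine are known to lower nitrate reductase transcripts in plants.

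The libraries held 21776595 and 24599752 recovered reads after glutamate, and 27674435 and 23669908 at 0 h. Among the 17750 genes that averaged 1 RPKM or more (reads per kilobase of gene, scaled to library size), 2888 were higher and 2585 lower with glutamate at a Benjamini-Hochberg adjusted p under 0.05 in limma. With libraries scaled to their totals these counts were 2450 and 4359. Over these 17750 genes the deposited scaling gave a median log2 change of -0.06, beside -0.23 for library totals and -0.15 for quantile normalization. Of 5 leaf markers, summed RPKM was 9331 and 7641 after glutamate and 12050 and 10540 at 0 h. RBCS1A, which was not called (adjusted p = 0.525 in limma), made up most of that sum in every library. Of 5 root markers the sum was 265 and 167 after glutamate and 413 and 278 at 0 h, most of it from PYK10, while the root hair genes COBL9 and EXPA7 stayed at or under 1.09 RPKM in every library. COBL9 and EXPA7 were too low to test. Of the 8 markers tested, LHCB3 and RCA of the leaf and TIP2;3 of the root were called lower and 0 higher. TIP2;3 passed the minimum of 1 RPKM only through its control libraries, at 0.650 and 0.394 RPKM after glutamate and 2.46 and 1.76 RPKM at 0 h. The part of these markers in the results below was not tested, and in seedling RNA fewer cells of a type and less RNA per cell cannot be told apart.

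Of the 8 genes, 4 rose after glutamate, namely NIA1, NIA2, NIR1 and UPM1, and 0 fell. Among all tested genes 30.8% were called, 16.3% as higher and 14.6% as lower. The mean RPKM after glutamate was 7.90 times the control mean for NIA2 and 7.48 times for NIA1, 4.25 times for NIR1 and 1.91 times for UPM1. The 4 genes that supply electrons had ratios between 0.864 and 1.38 and did not pass the test. Both glutamate libraries lay above both control libraries for 7 of the 8 genes, as they did for 29.1% of all tested genes, and G6PD2 had both glutamate libraries below both control libraries. The median log2 change of the 8 genes was 0.65, beside -0.06 for all tested genes, on the log2(RPKM + 1) scale used for every log2 change here unless another is named.

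**Figure D1:**
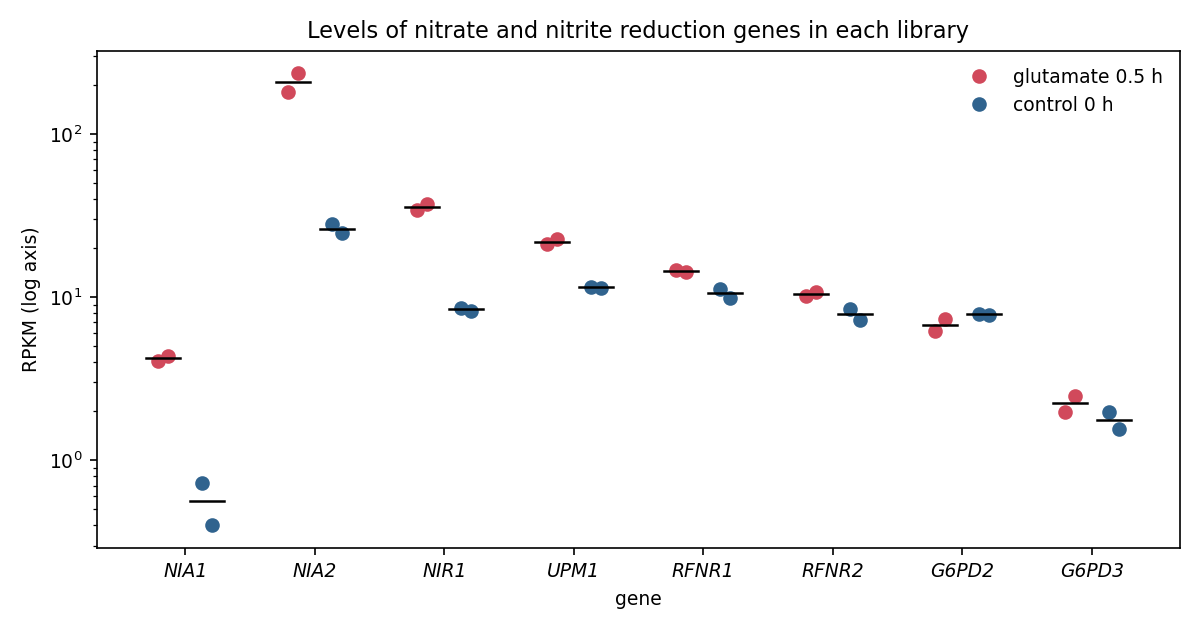
RPKM of each of the 8 genes, on a log axis, in the 2 glutamate libraries (red, left) and the 2 control libraries (blue, right), with a bar at each group's mean. NIA2 stands highest in both groups, at 181 and 236 RPKM after glutamate, and NIA1 is the lowest of the 8 at 0 h.

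NIA2, known as the major nitrate reductase gene of Arabidopsis leaves, was at 181 and 236 RPKM after glutamate and at 28.1 and 24.7 RPKM at 0 h. Its log2 change was 2.93 ± 0.17 (SE, adjusted p = 0.000217 in limma), the 385th largest rise among the 17750 tested genes. The groups lay far apart: the lower glutamate library exceeded the higher control library 6.44 times. These levels rest on 11167 and 16919 reads after glutamate and on 2528 and 1941 reads at 0 h. NIA2 made up 66.1% and 70.4% of the summed RPKM of the 8 genes after glutamate, and 35.7% and 34.6% at 0 h. The gene lies on the forward strand of chromosome 1, from 14158452 to 14161938 in TAIR10.1, and has 3 exons.

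NIA1, the minor nitrate reductase gene, was at 4.06 and 4.36 RPKM after glutamate and at 0.727 and 0.400 RPKM at 0 h. The control libraries held 63 and 30 of its reads, with exact 95% Poisson intervals of 48.4 to 80.6 and 20.2 to 42.8 that cover counting error only, and the glutamate libraries held 243 and 303. In proportion the control libraries lay further from each other than the glutamate libraries did, but the groups did not overlap. Its log2 change was 1.74 ± 0.17 (adjusted p = 0.00118 in limma), which understates the change of so low a gene: log2 of the ratio of mean RPKM was 2.90, beside 2.98 for NIA2. NIA1 reached the minimum mean of 1 RPKM only through its glutamate libraries, and it was also called when no minimum was set. It lies on the reverse strand of chromosome 1, from 29235721 to 29239484, with 4 exons.

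Within a library, where scaling between libraries plays no part, the RPKM of NIA2 was 44.5 and 54.0 times that of NIA1 after glutamate and 38.6 and 61.7 times at 0 h. The groups overlapped, with the highest and the lowest ratio both at 0 h. On the log2 scale this ratio was 5.62 ± 0.20 after glutamate and 5.61 ± 0.48 at 0 h (SD, n = 2 each), a difference of 0.01, with an exact two-sided permutation p of 1.0, where the smallest possible with 2 against 2 libraries is 0.33. With 0.1 or 0.5 RPKM added to each level before the ratio, the difference was 0.22 or 0.78. Its sign turned when a single library was left out, to -0.13 without glutamate replicate 2 and to -0.33 without control replicate 1. The coding sequences of the pair are 73.8% identical over 2724 aligned bases, and the deposited fraction that is read here as reads also matching elsewhere (shared reads) was 0 for both.

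NIR1, the only nitrite reductase gene among the 8, was at 34.4 and 37.3 RPKM after glutamate and at 8.58 and 8.28 RPKM at 0 h. Replicates were close to each other and the groups lay at least 4.00-fold apart. Its log2 change was 1.96 ± 0.12 (adjusted p = 0.000256 in limma), from 1432 and 1803 reads after glutamate and 521 and 439 at 0 h. At 0 h NIR1 could not be ordered against RFNR2, whose libraries overlapped with it, whereas after glutamate it was second only to NIA2 among the 8 genes, with no overlap with either neighbour. In a comparison chosen after the values were seen, NIA2 stood at 5.26 and 6.32 times the RPKM of NIR1 after glutamate and at 3.27 and 2.98 times at 0 h. That is a difference of 0.89 in log2 ratio (exact two-sided permutation p = 0.33, the smallest possible). NIR1 lies on the forward strand of chromosome 2, from 6810395 to 6812941, with 4 exons.

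UPM1 encodes uroporphyrinogen III methyltransferase, which commits the tetrapyrrole precursor to siroheme. It was at 21.0 and 22.7 RPKM after glutamate and at 11.5 and 11.5 RPKM at 0 h. The libraries of each group were close together and the groups did not overlap. Its log2 change was 0.87 ± 0.12 (adjusted p = 0.00422 in limma), the smallest of the 4 rises, and a fraction of 0.0186 of its reads is marked as shared. UPM1 lies on the forward strand of chromosome 5, from 16365900 to 16369316, and TAIR10.1 gives it 3 transcripts. Their joined exons cover 2723 bases, whereas the deposited length behind its RPKM is 1926 bases.

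For each of these 4 genes, all called higher, the 300 bases before the annotated start are shown 5′ to 3′ on the gene's strand. They were read from TAIR10.1, and whether the genes share a control was not tested. In capitals are matches to 5 motifs: the nitrate-responsive element (GACNCTT, then 10 bases of any kind, then AAG), its first part alone (GACNCTT, contained in the whole element), the W-box bound by WRKY factors (TTGACC or TTGACT), the CGCG core of calmodulin-binding activators (CGCG) and the G-box (CACGTG). All were searched on both strands. The windows are chr1:29239485-29239784 (reverse strand), chr1:14158152-14158451, chr2:6810095-6810394 and chr5:16365600-16365899 (forward strand), and no other annotated protein-coding gene touches them.
NIA1: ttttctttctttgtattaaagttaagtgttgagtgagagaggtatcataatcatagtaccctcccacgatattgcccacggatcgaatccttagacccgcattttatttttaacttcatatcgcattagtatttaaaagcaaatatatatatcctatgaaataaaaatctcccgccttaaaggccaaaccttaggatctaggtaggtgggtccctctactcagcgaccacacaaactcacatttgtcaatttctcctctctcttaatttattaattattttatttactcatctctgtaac
NIA2: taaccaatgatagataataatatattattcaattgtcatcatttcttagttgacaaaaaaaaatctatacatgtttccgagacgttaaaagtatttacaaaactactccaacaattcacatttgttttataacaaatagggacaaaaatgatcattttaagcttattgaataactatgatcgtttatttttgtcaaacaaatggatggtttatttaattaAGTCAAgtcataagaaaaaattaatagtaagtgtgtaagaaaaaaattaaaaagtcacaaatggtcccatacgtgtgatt
NIR1: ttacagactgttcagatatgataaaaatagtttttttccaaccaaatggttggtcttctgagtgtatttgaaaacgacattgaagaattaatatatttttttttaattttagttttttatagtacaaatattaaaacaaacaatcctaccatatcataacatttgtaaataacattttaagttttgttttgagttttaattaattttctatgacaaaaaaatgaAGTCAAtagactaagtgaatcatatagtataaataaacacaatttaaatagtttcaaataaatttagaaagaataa
UPM1: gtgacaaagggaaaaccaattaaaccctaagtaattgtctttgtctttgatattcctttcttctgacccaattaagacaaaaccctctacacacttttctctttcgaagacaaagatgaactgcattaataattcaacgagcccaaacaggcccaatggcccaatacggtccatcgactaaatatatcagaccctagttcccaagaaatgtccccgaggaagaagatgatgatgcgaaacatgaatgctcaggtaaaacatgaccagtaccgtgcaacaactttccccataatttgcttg

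NIA2 and NIR1 each held 1 W-box, on the strand opposite to the gene, with its first base 80 and 76 bases before the start. A W-box was present in 32.3% of 27443 windows of the same length before nuclear protein-coding genes, beside 2 of the 8 windows here. The windows of RFNR1, RFNR2 and G6PD2, which are not shown, each touch 1 other annotated protein-coding gene. The nitrate-responsive element was found in 0 of the 8 windows and in 45 of all 27443. Its first part was in 8.5% of windows, the CGCG core in 11.8% and the G-box in 7.1%, and none of these was in a window of the 8 genes. Matches are letters only, and their absence says nothing of sites outside these windows. GC content was 24.7% and 20.7% in the windows of NIA2 and NIR1, and 35.0% and 40.7% in those of NIA1 and UPM1.

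RFNR1 and RFNR2 encode the reductases that pass electrons from NADPH to ferredoxin in non-photosynthetic plastids. RFNR1 was at 14.7 and 14.3 RPKM after glutamate and at 11.2 and 9.87 RPKM at 0 h, and RFNR2 at 10.1 and 10.7 RPKM after glutamate and at 8.52 and 7.27 RPKM at 0 h. In both genes every glutamate library lay above every control library by a small margin, at least 1.28-fold and 1.19-fold. The log2 change of RFNR1 was 0.43 ± 0.13 with a 95% interval of 0.11 to 0.75, and missed the threshold (adjusted p = 0.0558 in limma). That of RFNR2 was 0.36 ± 0.14 with an interval of 0.02 to 0.70 (adjusted p = 0.103 in limma). With the median log2 ratio set to 0, RFNR1 passed (adjusted p = 0.0414 in limma). The ratio of RFNR2 to RFNR1 was 0.689 and 0.747 after glutamate and 0.759 and 0.736 at 0 h, and the difference in log2 ratio was -0.06 (exact two-sided permutation p = 0.67). Both lie on reverse strands, RFNR1 on chromosome 4 from 2738531 to 2740927 and RFNR2 on chromosome 1 from 10806930 to 10809188.

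G6PD2 and G6PD3, which make NADPH in plastids, were the only 2 of the 8 genes whose 95% interval for the log2 change included 0. G6PD2 was at 6.24 and 7.32 RPKM after glutamate and at 7.93 and 7.76 RPKM at 0 h, with a log2 change of -0.19 ± 0.14 (interval -0.53 to 0.15, adjusted p = 0.353 in limma). G6PD3 was at 1.99 and 2.49 RPKM after glutamate and at 1.98 and 1.56 RPKM at 0 h, with a log2 change of 0.23 ± 0.17 (interval -0.19 to 0.64, adjusted p = 0.368 in limma). The groups of G6PD3 lie apart by a ratio of only 1.01, within the counting error of its 80 to 116 reads per library. The upper ends of these intervals were 1.56-fold for G6PD3 and 1.11-fold for G6PD2 on the log2(RPKM + 1) scale, which understates changes of low genes. In RPKM the largest ratio of a glutamate to a control library of G6PD3 was 1.59, so a larger rise is not excluded. G6PD3 had 0.319 and 0.339 times the RPKM of G6PD2 after glutamate and 0.249 and 0.201 times at 0 h, a difference of 0.55 in log2 ratio (exact two-sided permutation p = 0.33, the smallest possible). The coding sequences of this pair are 84.5% identical, and shared-read fractions were 0.00226 for G6PD2 and 0.0439 for G6PD3. G6PD2 lies on chromosome 5 from 4158639 to 4161845 and G6PD3 on chromosome 1 from 8609338 to 8612580, both on the forward strand.

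**Figure D2:**
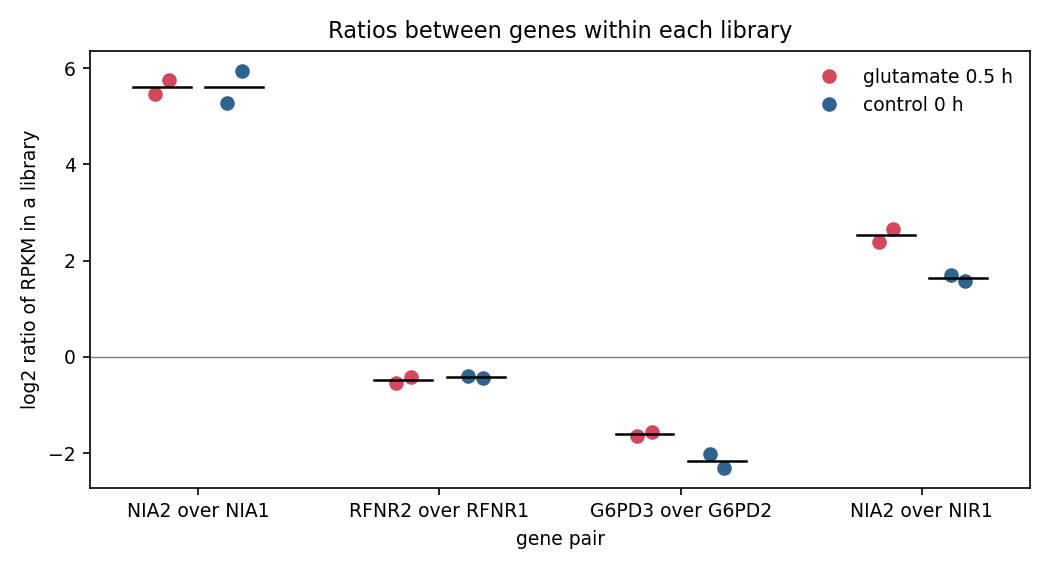
Log2 ratio of RPKM between pairs of genes within each library, for the 2 glutamate libraries (red, left) and the 2 control libraries (blue, right), with a bar at each mean. The NIA2 to NIA1 ratio overlaps between the groups, whereas the ratios of G6PD3 to G6PD2 and of NIA2 to NIR1 are higher in both glutamate libraries.

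Ordered by mean RPKM, the 8 genes after glutamate ran NIA2, NIR1, UPM1, RFNR1, RFNR2, G6PD2, NIA1, G6PD3, and the libraries of no neighbouring pair overlapped. At 0 h the order was NIA2, UPM1, RFNR1, NIR1, RFNR2, G6PD2, G6PD3, NIA1. There NIR1, RFNR2 and G6PD2 overlapped with their neighbours, at means of 8.43, 7.89 and 7.85 RPKM. UPM1 and RFNR1 did not overlap at 0 h, but their counting error did. The 95% Poisson intervals were 10.5 to 12.5 RPKM for UPM1 in control replicate 2 and 10.3 to 12.2 RPKM for RFNR1 in control replicate 1. Both orders rest on the deposited lengths, which equal no TAIR10.1 transcript of the 8 genes. In these orders NIA1 stood below G6PD3 at 0 h and above it after glutamate. The 8 genes together came to 273 and 335 RPKM after glutamate and to 78.5 and 71.3 RPKM at 0 h.

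The molybdenum cofactor is built by the CNX proteins and sits in every nitrate reductase. Of 10 genes for its synthesis, transport and molybdate uptake, 1 rose and 2 fell, with a median log2 change of -0.21. For this and the other related lists below, the values to set beside are those of all tested genes. Of these, 16.3% were called higher and 14.6% lower, with a median of -0.06. MOT1, a molybdate transporter gene, fell to 4.87 and 3.85 RPKM after glutamate, against 20.4 and 13.7 RPKM at 0 h (log2 change -1.73 ± 0.22, adjusted p = 0.00302 in limma), the opposite direction to NIA2. CNX2, for the first step of cofactor synthesis, rose by 0.52 and CNX6, for the large subunit of molybdopterin synthase, fell by 0.50 on the log2 scale. Both of these calls were lost when any one library was left out (adjusted p = 0.0592 to 0.166 in limma), and that of CNX2 also with library totals and quantile normalization (0.087 and 0.052). Of 8 other genes for molybdenum enzymes or their like, 7 were tested, 0 rose and 3 fell, with a median of -0.33. The 8th, XDH2, was too low to test. The aldehyde oxidase gene AAO1 was at 18.4 and 18.6 RPKM after glutamate and at 43.2 and 35.9 RPKM at 0 h, a log2 change of -1.05 ± 0.14. AAO2, another aldehyde oxidase gene, fell by 0.84, and the xanthine dehydrogenase gene XDH1, named after its value was seen, fell by 0.83. Without a filter on low genes these 2 calls were lost (adjusted p = 0.052 and 0.0609 in limma).

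Around siroheme, 0 of 5 tested genes were called, with a median of -0.16. SIRB, for the ferrochelatase that completes siroheme, was at 24.3 and 27.2 RPKM after glutamate and at 26.1 and 31.9 RPKM at 0 h. SIR, for sulfite reductase, the other siroheme enzyme, was at 46.4 and 43.6 RPKM after glutamate and at 56.8 and 48.0 RPKM at 0 h. At an unadjusted p under 0.05 in limma, 1 of the 5 was lower and 0 higher, beside 21.7% and 19.9% of all tested genes. Of 5 genes for ferredoxins and leaf-type reductases, 1 rose and 1 fell, with a median of -0.23. FD3, the root-type ferredoxin gene, was at 83.4 and 90.7 RPKM after glutamate and at 53.9 and 59.5 RPKM at 0 h (log2 change 0.61 ± 0.13, adjusted p = 0.0177 in limma). FD1, a leaf-type ferredoxin gene, was at 104 and 130 RPKM after glutamate and at 179 and 219 RPKM at 0 h (log2 change -0.76 ± 0.17). The FD3 call was lost without glutamate replicate 2 or control replicate 1 (adjusted p = 0.0919 and 0.0804), with library totals (0.0586) and with quantile normalization (0.092). The FD1 call was lost without glutamate replicate 1 or control replicate 2 (adjusted p = 0.0807 and 0.069) and with no filter (0.108). The leaf-type reductase genes LFNR1 and LFNR2 were not called, at 324 and 289 RPKM and at 608 and 538 RPKM after glutamate, against 365 and 352 RPKM and 601 and 579 RPKM at 0 h. LFNR1 was called lower with library totals (log2 change -0.42, adjusted p = 0.0486 in limma) and with quantile normalization (-0.58, adjusted p = 0.0249).

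**Figure D3:**
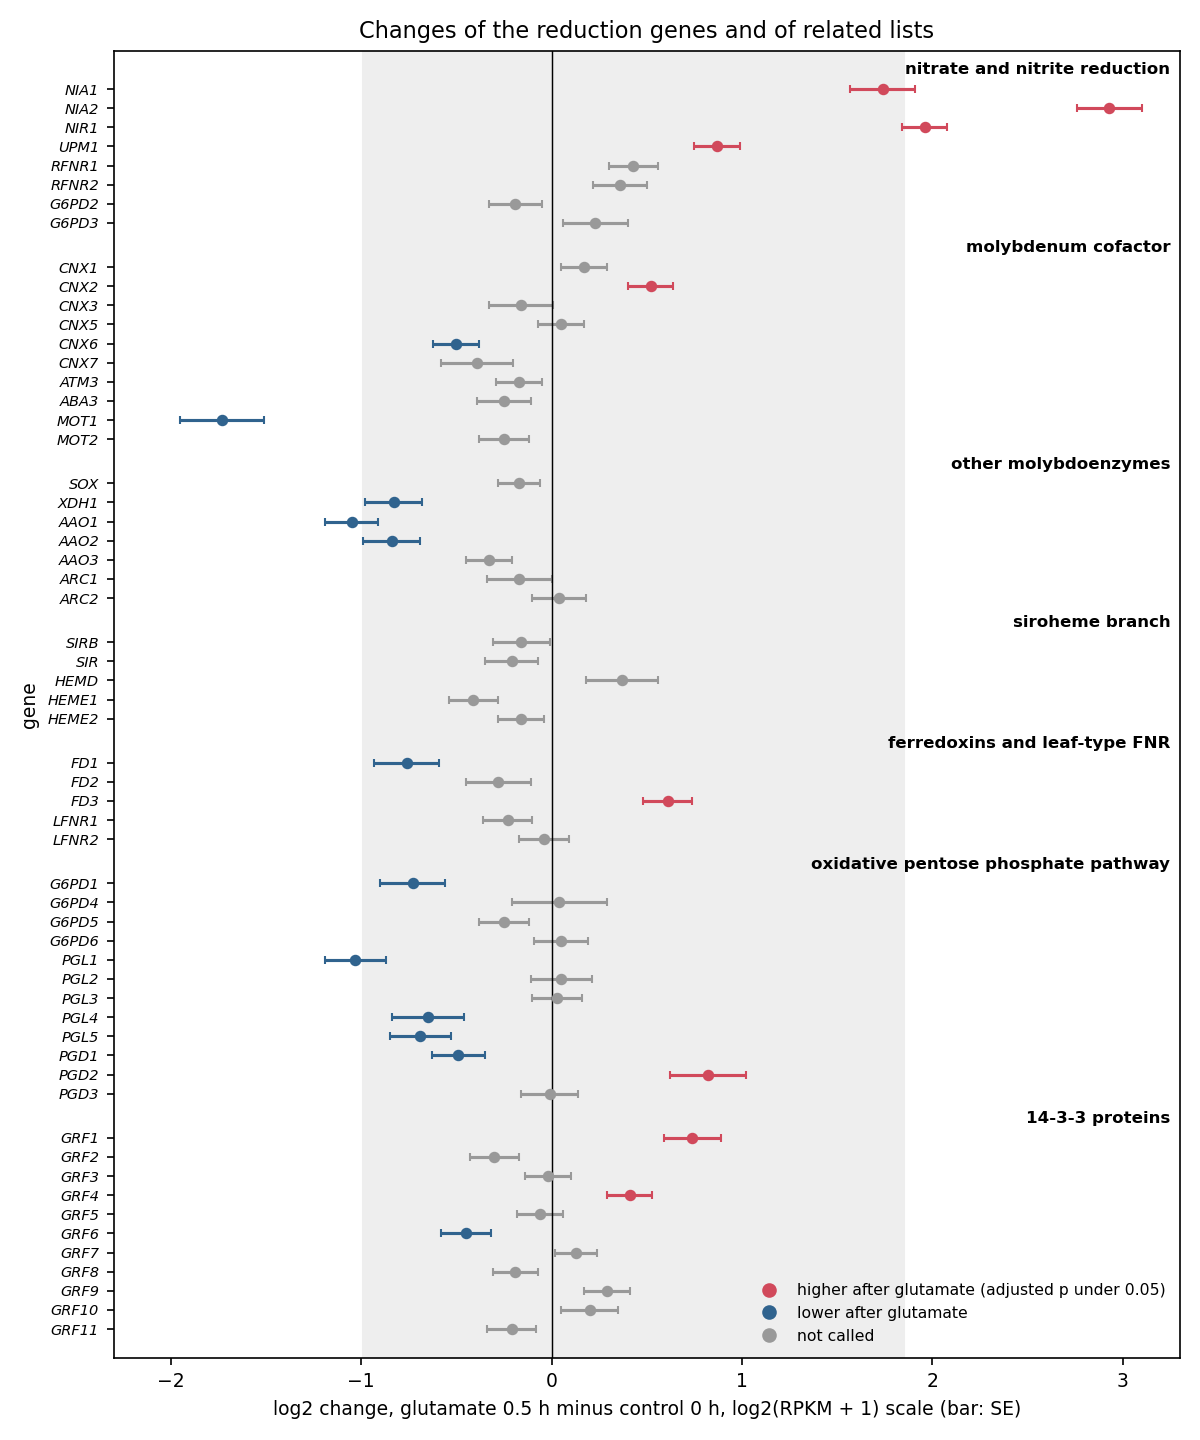
Log2 change (glutamate minus control, log2(RPKM + 1) scale, bars show SE) of the 8 genes at the top and of 50 tested genes of 6 related lists below, coloured by call. The grey band spans the 5th to the 95th percentile of all tested genes, -0.99 to 1.85, and NIA2 and NIR1 lie to its right while MOT1, AAO1 and PGL1 lie to its left.

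In the rest of the oxidative pentose phosphate pathway, 1 of 12 genes rose and 5 fell, with a median of -0.13. Among all tested genes 16.3% were called higher and 14.6% lower, with a median of -0.06. PGD2, for a 6-phosphogluconate dehydrogenase, the second NADPH-forming step, was at 94.6 and 79.2 RPKM after glutamate and at 57.3 and 41.4 RPKM at 0 h (log2 change 0.82 ± 0.20, adjusted p = 0.0282 in limma). That call was lost without glutamate replicate 1 or control replicate 2 (adjusted p = 0.0601 and 0.0696), with quantile normalization (0.0899) and with no filter (0.129). G6PD1, another plastidic isoenzyme gene, was at 23.7 and 18.2 RPKM after glutamate and at 37.5 and 32.8 RPKM at 0 h (log2 change -0.73 ± 0.17), a call lost without glutamate replicate 2 or control replicate 1 (adjusted p = 0.0983 and 0.059) and with no filter (0.102). PGL1, for a 6-phosphogluconolactonase, fell by 1.03 ± 0.16. PGL4, PGL5 and PGD1, named after their values were seen, fell by 0.65, 0.69 and 0.49, and each lost its call with no filter (adjusted p = 0.182, 0.0656 and 0.105). The calls were also lost for all of them on leaving out glutamate replicate 2 or control replicate 2, for PGL4 and PGD1 on leaving out glutamate replicate 1, and for PGD1 on leaving out control replicate 1. With the median log2 ratio set to 0, PGL4 and PGD1 lost their calls too (adjusted p = 0.0643 and 0.0698 in limma), as PGL4 did with quantile normalization and voom weights (0.0507 and 0.0649) and PGD1 with centring on control genes (0.0592). PGL5 reached the minimum of 1 RPKM only through its control libraries, at 0.853 and 0.699 RPKM after glutamate and 1.70 and 2.04 RPKM at 0 h. The cytosolic G6PD5 and G6PD6 were not called, at log2 changes of -0.25 and 0.05, but G6PD5 was called lower with library totals (-0.43, adjusted p = 0.0399 in limma). G6PD4, with a shared-read fraction of 0.446 that leaves its level uncertain, had a log2 change of 0.04 ± 0.25 and was not called either. The log2 changes of G6PD4 and G6PD6 took the other sign under some scalings.

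14-3-3 proteins bind phosphorylated nitrate reductase and hold it inactive. Of the 12 of their genes listed here, GRF1 to GRF12, 11 were tested, GRF12 being too low. Of these 11, 2 rose and 1 fell, with a median of -0.02. GRF1 was at 229 and 193 RPKM after glutamate and at 135 and 117 RPKM at 0 h (log2 change 0.74 ± 0.15, adjusted p = 0.0169 in limma). GRF4 rose by 0.41 and GRF6 fell by 0.45. The GRF1 call was lost without glutamate replicate 1 or control replicate 2 (adjusted p = 0.0673 and 0.0584), with quantile normalization (0.11) and with no filter (0.0745), and those of GRF4 and GRF6 without any one library (0.117 to 0.236). GRF4 was also not called with library totals (log2 change 0.22, adjusted p = 0.176 in limma), quantile normalization (0.14, adjusted p = 0.39) or centring on control genes (adjusted p = 0.063). GRF6 was also not called with no filter (adjusted p = 0.143) or with the median log2 ratio set to 0 (adjusted p = 0.069). Over the 6 related lists 5 of 50 tested genes rose and 12 fell, with a median of -0.17, where 16.3% of all tested genes were called higher and 14.6% lower. On leaving out 1 library, glutamate replicate 1 gave 1 rise and 7 falls and glutamate replicate 2 gave 2 and 6. Leaving out control replicate 1 gave 2 and 8, and control replicate 2 gave 1 and 6. With quantile normalization 0 of the 50 rose.

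Likeness to NIA2 and NIR1 was measured as the Euclidean distance between log2 values centred on each gene's own mean, over the 4 libraries. With 2 groups this mostly finds genes of the same change on the log2(RPKM + 1) scale. Nearest to NIA2 were AT4G39320, BAP2 (AT2G45760) and AT5G44350, at distances of 0.094, 0.136 and 0.138. They were far less abundant than NIA2, and AT4G39320 was at 13.2 and 16.1 RPKM after glutamate and at 1.26 and 0.989 RPKM at 0 h. BAP2 was at 6.49 and 8.86 RPKM after glutamate and at only 0.320 and 0.171 RPKM at 0 h. The log2(RPKM + 1) scale understates changes of low genes, so in RPKM these genes rose by larger ratios than NIA2. Nearest to NIR1 were AT4G21740, AT5G08500 and AT4G38940, at distances of 0.049, 0.050 and 0.055. AT4G21740 was at 42.7 and 45.3 RPKM after glutamate and at 10.3 and 10.0 RPKM at 0 h, close to NIR1 in level as well.

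**Figure D4:**
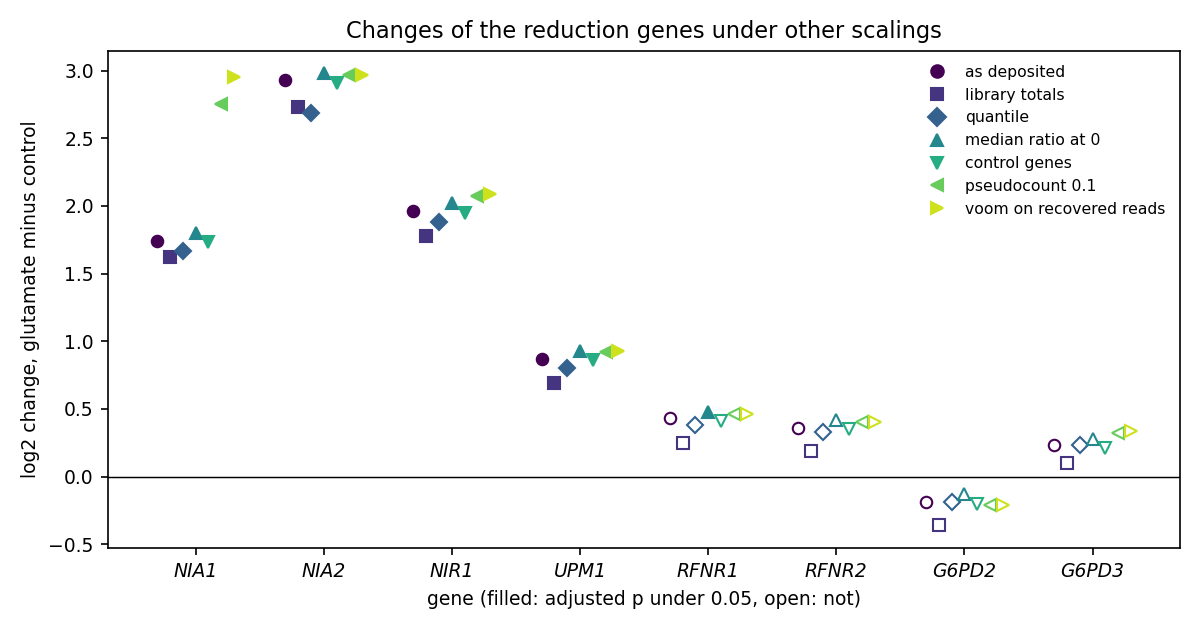
Log2 change (glutamate minus control) of the 8 genes as deposited and under 6 other scalings or models, filled where the adjusted p was under 0.05 and open where it was not. NIA1, NIA2, NIR1 and UPM1 are filled throughout, and NIA1 stands at 1.74 as deposited and at 2.95 with voom weights on recovered reads.

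The calls of NIA1, NIA2, NIR1 and UPM1 were made in every setting in which each gene was tested. Log2 changes there ran from 2.69 to 3.12 for NIA2, from 1.59 to 2.95 for NIA1, from 1.78 to 2.09 for NIR1 and from 0.69 to 0.93 for UPM1. The direction of each of the 8 genes was the same in every setting, uncalled genes included. Because the groups overlapped for none of the 8, pseudocounts, filters or leaving out a library could not turn a direction. Only a change of scaling could have done so. RFNR1 and RFNR2 had their smallest changes, 0.25 and 0.19, with library totals, where the median of all genes also lay lowest.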

How the data were processed

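Total RNA of seedlings was sequenced from Trizol extracts with an Illumina TruSeq kit, per the labels. The authors deposited 1 RPKM value per gene and library, TMM-normalized (trimmed mean of M-values) per the name of the deposited table, with a length and a fraction between 0 and 1 (maxMultiRatio in the file header, undefined there, read as the share of reads also matching elsewhere). TAIR10 and SAMtools are named in the submitters' processing notes. For aligner, counter and strand use, nothing is given in the sources used here. Value times length rises in equal steps, and with its lowest level taken as 0.5 of a read added to each gene, reads and library sizes were recovered (whole within 0.01 for 99.90% to 99.96% of genes at a fraction of 0). Chi-square per degree of freedom between replicates was 27.1 after glutamate and 31.7 at 0 h, so no pair was a duplicate. Values were tested as log2(RPKM + 1), for the 17750 genes averaging 1 RPKM or more, with limma 3.58.1 in R 4.3.3 (variance trend, two-sided, Benjamini-Hochberg, checked on simulated data). Intervals use limma's moderated SE, with a prior worth 3.49 degrees of freedom. Within-library ratios were compared by exact permutation. Coordinates and sequences come from RefSeq's TAIR10.1. The deposited table holds no coordinates, and its lengths equal no TAIR10.1 transcript of the 8 genes. The 8 genes, the lists and the motifs were chosen with earlier results of these data known. Named are the 8 genes, the 2 largest rises and falls called in each related list, fixed isoenzymes (G6PD1, G6PD4 to G6PD6, LFNR1, LFNR2, FD3, SIR, SIRB) and the 3 genes nearest to NIA2 and NIR1. Alternatives were 2 pseudocounts, 2 filters, 4 scalings, voom weights, a replicate block (libraries of the same number) and leaving out each library.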

Additional observations from a re-analysis of the deposited data

How the results depend on the processing

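Each of the 8 genes kept its direction under the 14 alternatives, or 13 for NIA1 and G6PD3, which were not tested at a mean of at least 5 RPKM. The groups overlapped for none of the 8 genes, so only a change of scaling could have turned a direction. With the replicate block, libraries of the same number were paired. They deviated together (r = 0.60 across genes), but the labels do not say that they share more than a number. The block called 4445 genes higher and 5280 lower and 20 lower in the related lists, and RFNR1, RFNR2, LFNR1 and G6PD5 passed (adjusted p = 0.0056, 0.0214, 0.042 and 0.035 in limma). Voom weights in limma on the recovered reads called 2934 genes higher and 2687 lower. With no filter 1335 genes were lower, and 3 rose and 4 fell in the related lists. With library totals 4359 genes were lower and 2 related genes rose, and with quantile normalization 0 rose. With 1 library left out, where the lone library of a group is assumed to vary like the others, 1 to 2 related genes rose and 6 to 8 fell, and the change in the log2 ratio of NIA2 to NIA1 was -0.33 to 0.34. Of the 17 related genes called, MOT1, AAO1 and PGL1 kept their calls throughout and 14 lost them under some alternative. LFNR2 turned to 0.01 with the median log2 ratio at 0 and to 0.04 without glutamate replicate 2 (-0.13 to 0.04 leaving out each library). G6PD4 turned to -0.15 with library totals, -0.05 with quantile normalization, -0.22 without glutamate replicate 2 and -0.23 without control replicate 1 (-0.23 to 0.31 leaving out each). G6PD6 turned to -0.14 with library totals, -0.06 with quantile normalization, -0.06 without glutamate replicate 2 and -0.05 without control replicate 2 (-0.06 to 0.15 leaving out each). The causes were not tested. Only 2 libraries a group limit precision.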
